A study of Mus musculus with 25 samples.

Results

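Messenger RNA levels of 45 mouse genes of the endoplasmic reticulum (ER) stress response and the integrated stress response were followed in early embryos. The genes were chosen by symbol and matched to 1 locus each among the 24708 gene loci, of 24257 symbols, in the expression table of every library. They were kept in 2 arms: 18 genes of the unfolded-protein arm and 27 genes of the amino acid arm, which is led by the transcription factor Atf4. Of 25 samples in the series, 11 gave expression tables of embryos of the mouse strain BDF1. The 2-cell embryos, of embryonic day 1.5, carried the genotype labels WT, sIVF and IVF, with 2 libraries each. The blastocysts, of embryonic day 4.0, were labelled Fzr1-OE (3 libraries) or Control (2 libraries). The labels state neither what sIVF stands for nor how Fzr1 was overexpressed, and no label ties the replicates to separate cultures or litters. P-values therefore measure the spread between these libraries, which may be technical.

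Proteins that enter the ER are folded there by chaperones. When unfolded protein builds up, the sensors Ern1 (IRE1), Eif2ak3 (PERK) and Atf6 start the unfolded-protein response: Ern1 splices the RNA of Xbp1, and Xbp1 and Atf6 raise the genes of chaperones, disulfide isomerases and ER-associated degradation. Eif2ak3 and a second kinase, Eif2ak4 (GCN2), which senses uncharged tRNA when amino acids run short, both phosphorylate the initiation factor eIF2, which lowers protein synthesis in general but favours translation of Atf4. Atf4 in turn raises genes that make, import and charge amino acids, so that chaperone genes and Atf4 target genes are read as separate outputs. Splicing of Xbp1 and phosphorylation of eIF2 are not visible in gene-level RNA values.

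The values are FPKM, fragment levels scaled to transcript length and library size, so they can be compared between genes of unequal length. Between 10085 and 11860 loci were above 0 in the 2-cell libraries and between 13658 and 13947 in the blastocyst libraries. From the deposited bounds, the median member value of at least 1 FPKM rested on about 340 fragments at the 2-cell stage and 924 in blastocysts. Counting alone gave these values an error (2 SD) of 10.9% and 6.58%, which covers counting error only. Pairs of libraries of the same stage had Pearson r, across loci, of 0.917 to 0.937 at the 2-cell stage and 0.984 to 0.990 in blastocysts. Blastocyst libraries held all 12 trophectoderm markers at 1 FPKM or more, whereas 2 to 5 of them reached that level in 2-cell libraries. Fzr1, the activator of the anaphase-promoting complex named in the blastocyst labels, stood at 12.7, 15.5 and 17.1 FPKM in the libraries labelled Fzr1-OE and at 16.5 FPKM in each of the 2 Control libraries. The targeted gene was thus not above Control, and the group is named by its label throughout.

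The promoters of the members were searched for known response elements of each arm. RefSeq windows of 300 bases (250 before to 50 after the start; build GRCm38.p6) were found for 39 of the 45 members and searched on both strands. The ER stress response element (ERSE), CCAAT and CCACG with 9 bases between them, known as a binding element of Atf6 with the factor NF-Y, was in 7 of 16 unfolded-protein promoters (43.8%), in 0 of 23 of the amino acid arm, and in 37 of all 27025 genes with a window (0.137%). Its 7 holders were Hspa5, Hsp90b1 (a pair of matches), Calr, Canx, Dnajc3, Creld2 and Pdia6. The related ERSE-II, ATTGG and CCACG with 1 base between them, was in 1 member, Herpud1, and in 12 of all genes (0.0444%). The element named UPRE, TGACGTGG, was in 0 of 39 members and 193 of all genes (0.714%). The C/EBP-ATF response element (CARE), TGATGNAA, known as a binding element of Atf4 with C/EBP factors, was in 9 of 23 amino acid promoters (39.1%), in 1 of 16 unfolded-protein promoters and in 1219 of all genes (4.51%). The 9 were Atf3, Nupr1, Trib3, Asns, Slc7a11, Aars, Gars, Chac1 and Vldlr, and the other was Herpud1, which holds both ERSE-II and CARE. No pair of matches in these promoters overlapped. A match describes the letters and does not show that a factor binds.

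Promoter stretches of 4 chaperone genes are given 5′ to 3′ on the strand of the gene, with the ERSE match in capitals, to show the element in both orientations. Of the 4, Hsp90b1 passed the test in blastocysts and the others did not, while Dnajb9, the other chaperone that passed, has no ERSE match in its window. They lie at chr2:34771990-34772078 (plus strand), chr10:86705498-86705691 (minus strand), chr8:84847040-84847128 (minus strand) and chr15:88819485-88819573 (plus strand). The match in Hspa5 runs from -65 to -47 relative to the start, and those in Calr and Creld2 read on the opposite strand.
Hspa5: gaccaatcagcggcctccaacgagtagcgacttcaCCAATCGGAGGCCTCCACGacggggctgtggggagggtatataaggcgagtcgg
Hsp90b1: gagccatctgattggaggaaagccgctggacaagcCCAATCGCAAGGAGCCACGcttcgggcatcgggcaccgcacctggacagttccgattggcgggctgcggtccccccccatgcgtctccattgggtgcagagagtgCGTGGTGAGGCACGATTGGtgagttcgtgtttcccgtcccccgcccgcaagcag
Calr: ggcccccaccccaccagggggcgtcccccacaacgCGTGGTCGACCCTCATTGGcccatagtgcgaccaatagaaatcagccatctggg
Creld2: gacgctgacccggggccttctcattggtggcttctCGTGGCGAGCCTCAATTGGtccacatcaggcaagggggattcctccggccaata

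For the amino acid arm, the CARE match is in capitals for Asns and Nupr1, the 2 members furthest below Control in blastocysts, and for Aars, a tRNA synthetase, whose second CARE match, at 9 to 16 after the start, lies outside the stretch shown. Slc7a11 is shown for its pair of CARE matches in a gene that was listed near 0 in blastocysts. Herpud1 is shown because its window holds both kinds of element, CARE first and ERSE-II second, both in capitals. The stretches lie at chr6:7693210-7693267 (minus strand), chr7:126625538-126625615 (minus strand), chr8:111033695-111033772 (plus strand), chr3:50443618-50443714 (minus strand) and chr8:94386282-94386422 (plus strand). The Asns match, TGATGAAA, runs from -23 to -16, and the Nupr1 match, TTGCATCA on the strand of the gene, runs from -110 to -103. The same 8 letters stand in the Aars and Herpud1 windows, from -112 to -105 in both.
Asns: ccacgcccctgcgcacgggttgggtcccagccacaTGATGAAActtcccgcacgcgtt
Nupr1: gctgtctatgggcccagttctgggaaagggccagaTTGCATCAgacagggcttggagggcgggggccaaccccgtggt
Aars: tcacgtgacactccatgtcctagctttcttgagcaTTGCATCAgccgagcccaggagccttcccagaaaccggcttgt
Slc7a11: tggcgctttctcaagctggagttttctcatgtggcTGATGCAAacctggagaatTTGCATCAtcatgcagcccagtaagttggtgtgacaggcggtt
Herpud1: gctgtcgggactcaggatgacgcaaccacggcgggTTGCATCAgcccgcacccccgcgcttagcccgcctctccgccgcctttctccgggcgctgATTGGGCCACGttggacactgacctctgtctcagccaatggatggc

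In the blastocyst libraries labelled Fzr1-OE, 2 ER chaperone genes, Dnajb9 and Hsp90b1, rose, and 3 genes of the amino acid arm, Asns, Nupr1 and Slc3a2, fell. Of the 45 members, 36 reached a mean of 1 FPKM and were tested with limma on log2(FPKM + 1), with Benjamini-Hochberg adjustment over all 9439 loci, and 5 of the 36 passed an adjusted p of 0.05 (13.9%). Over all loci tested, 4.21% passed, 2.29% higher and 1.92% lower. The groups did not overlap for 26 of the 36 members (72.2%), against 37.4% of all loci, and 14 lay above and 12 below Control, against 19% and 18.4% of all loci. Hsp90b1 and Slc3a2 did not pass when any 1 of the 5 libraries was left out, and Dnajb9 and Nupr1 did not pass without either Control library. Of 16 unfolded-protein genes tested, 14 had a positive log2 fold change and 2 a negative one, with a median of 0.27. Of 20 amino acid genes 14 had a negative and 6 a positive one, with a median of -0.17, while the median over all loci was 0.01. The amino acid genes lay on both sides of Control: 11 were below it and 3 above it without overlap. The FPKM of the 18 unfolded-protein genes summed to between 1237 and 1264 in the libraries labelled Fzr1-OE and to 1068 and 1051 in Control. The 27 amino acid genes summed to between 538 and 587 against 662 in each Control library, so neither sum overlapped. In bulk libraries, fewer cells of a type and less RNA per cell cannot be told apart.

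**Figure D1:**
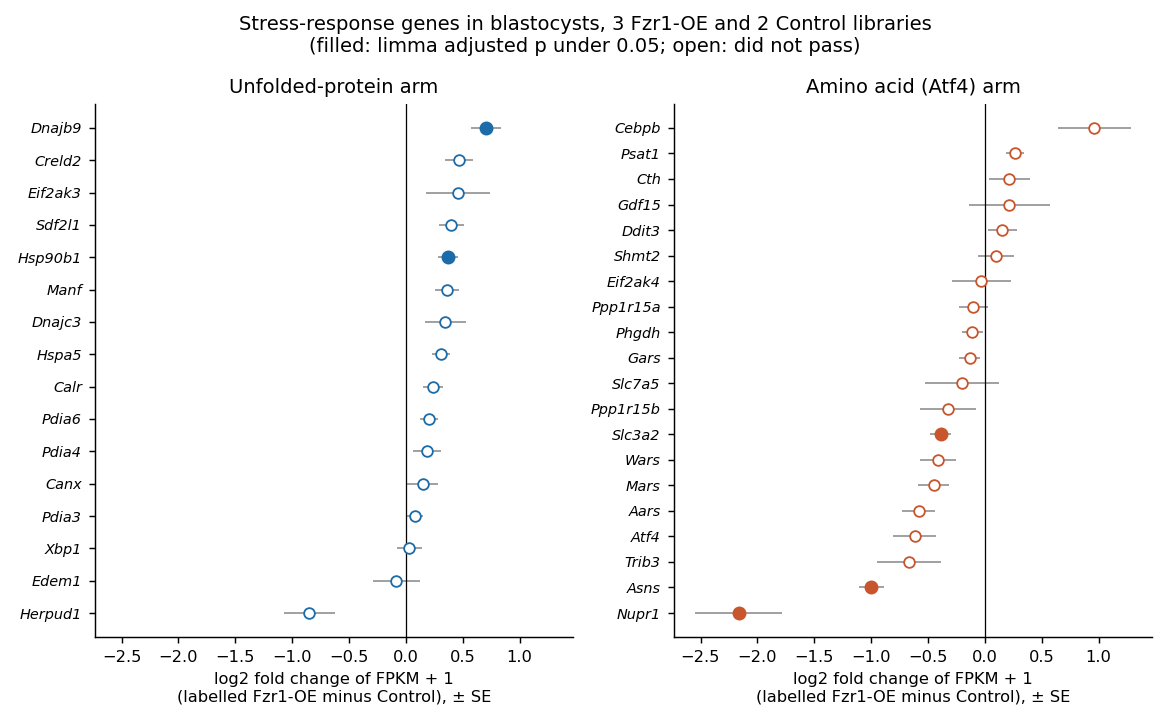
Log2 fold change of FPKM + 1 (libraries labelled Fzr1-OE minus Control, x axis) with its SE for the 16 unfolded-protein genes (left) and 20 amino acid genes (right) tested in blastocysts. Filled points passed limma's adjusted p of 0.05. The chaperones lie to the right of 0, with Dnajb9 at 0.70, and Herpud1, at -0.85, lies apart from them. Asns (-0.999) and Nupr1 (-2.16) lie furthest to the left in the amino acid arm.

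The sensors of the unfolded-protein arm were low in blastocysts. Ern1 stood at 0.595, 0.107 and 0.431 FPKM in the libraries labelled Fzr1-OE and 0.454 and 0.572 in Control. Atf6 stood at 0.868, 0.733 and 0.612 against 0.938 and 0.762, and like Ern1 it was too low to be tested. Eif2ak3 was at 2.03, 1.15 and 1.43 against 1.06 and 0.621, above Control in each library but short of the test (log2 fold change 0.46, SE 0.29, adjusted p = 0.424). The effector Xbp1 was well measured and its groups overlapped, at 72.7, 66.0 and 81.4 FPKM against 69.2 and 74.2 (0.03, SE 0.11, adjusted p = 0.919).

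All 9 chaperones and cochaperones of the ER had a positive fold change, with a median of 0.36. Without overlap, 8 of the 9 lay above Control, where 19% of all loci did. Dnajb9, a DnaJ cochaperone of the ER lumen (chr12:45306884-45311055 in mm9), stood at 29.9, 26.1 and 31.5 FPKM in the libraries labelled Fzr1-OE and at 17.7 and 17.2 in Control. It was higher in each of the 3 libraries, with a log2 fold change of 0.70 (SE 0.13, adjusted p = 0.0209). Hsp90b1, the ER member of the HSP90 family (chr10:86153586-86168189 in mm9), stood at 133, 136 and 129 FPKM against 109 and 96.4, also without overlap, and rose by 0.37 on the log2 scale (SE 0.09, adjusted p = 0.0456). These were the only 2 of the 9 chaperones to pass the test.

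The remaining chaperones gave smaller or less certain values. Hspa5 (BiP), the main ER HSP70 chaperone and the binding partner of all 3 sensors, stood at 212, 216 and 227 FPKM against 187 and 166 (0.30, SE 0.08, adjusted p = 0.0641). Creld2, a secretory-pathway protein induced by ER stress, stood at 113, 128 and 136 against 103 and 79.3 (0.46, SE 0.12, adjusted p = 0.0737). Sdf2l1, part of a chaperone complex with Hspa5, was at 72.8, 63.7 and 65.4 against 54.7 and 47.1 (0.40, SE 0.11, adjusted p = 0.0796). None of these 3 passed, although every library labelled Fzr1-OE lay above both Control libraries. The lectin chaperone Calr was at 118, 115 and 109 FPKM against 91.5 and 102 (0.24, SE 0.09, adjusted p = 0.178), again without overlap. Manf, a secreted protein resident in the ER, had a log2 fold change of 0.36 (adjusted p = 0.0942), Dnajc3 of 0.35 (adjusted p = 0.335) and the membrane lectin Canx, which overlapped, of 0.15 (adjusted p = 0.611).

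None of the 3 disulfide isomerases and 2 degradation genes passed. Pdia4 stood at 41.6, 37.8 and 35.2 FPKM against 35.8 and 31.2 and overlapped Control (0.18, SE 0.12, adjusted p = 0.463). Pdia6 (0.20) and Pdia3 (0.08) did not overlap but did not pass either. Herpud1, a membrane protein of ER-associated degradation, was the only tested unfolded-protein gene with all libraries below Control, at 9.01, 12.8 and 12.8 FPKM against 16.9 and 26.8 (-0.85, SE 0.22, adjusted p = 0.0694). Edem1, which passes misfolded glycoproteins to degradation, overlapped (-0.08, SE 0.21), and its sign turned without replicate 2 labelled Fzr1-OE.

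In the amino acid arm, the genes that passed were 1 enzyme, 1 transporter subunit and 1 stress-induced chromatin protein. Asns, asparagine synthetase (chr6:7625171-7643182 in mm9), stood at 34.3, 38.5 and 36.0 FPKM in the libraries labelled Fzr1-OE against 77.8 and 69.2 in Control. The group means were 36.3 ± 2.09 (SD, n = 3) and 73.5 ± 6.10 (SD, n = 2), and limma gave a log2 difference of -0.999 (SE 0.11, adjusted p = 0.0012), with all 3 libraries below Control. Nupr1, a small chromatin-associated stress protein (chr7:133766760-133768984 in mm9), stood at 1.08, 0.952 and 3.87 FPKM against 9.68 and 12.7 (-2.16, SE 0.38, adjusted p = 0.0152). The groups did not overlap, but replicate 3 labelled Fzr1-OE stood above the other two. Slc3a2, the heavy chain shared by Slc7a5 and Slc7a11 transporters (chr19:8781372-8797859 in mm9), stood at 58.9, 59.6 and 64.7 FPKM against 79.8 and 80.7 (-0.39, SE 0.09, adjusted p = 0.0499), just inside the threshold.

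**Figure D2:**
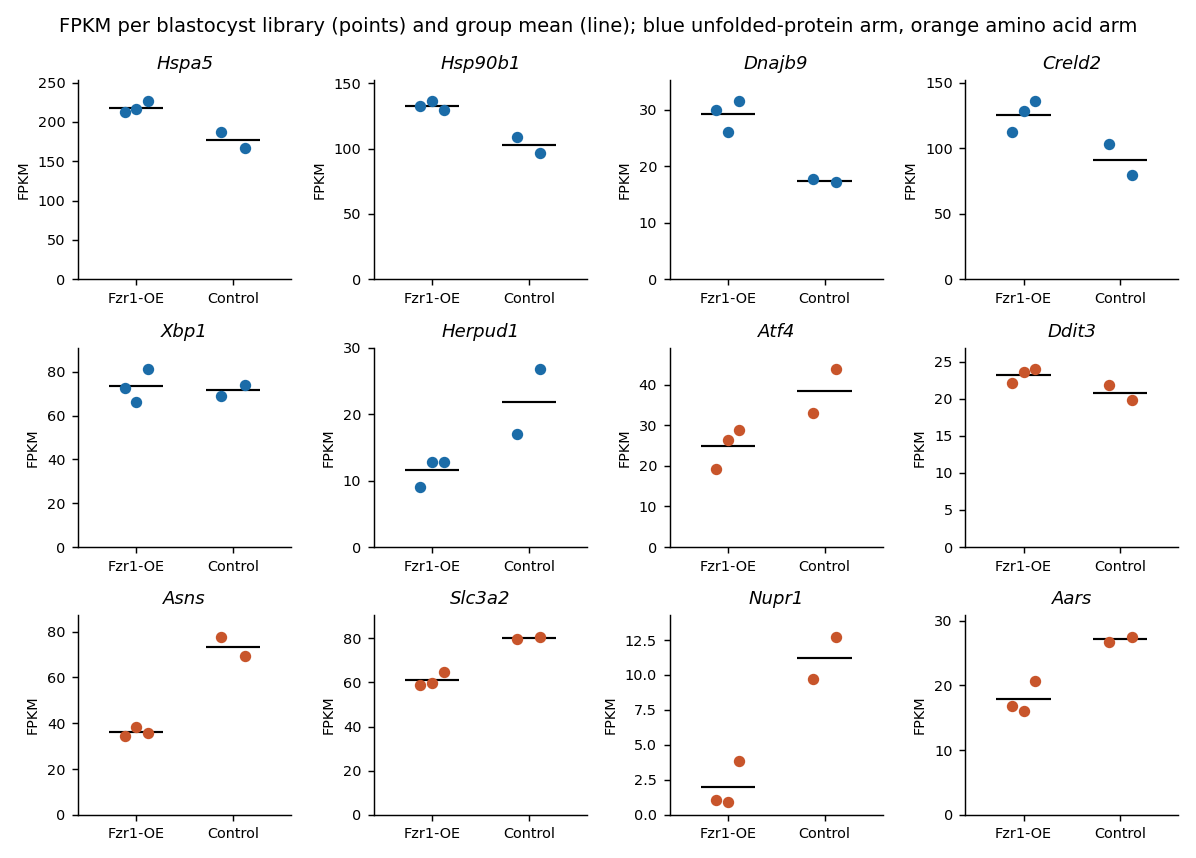
FPKM (y axis, from 0) of 12 stress-response genes in each blastocyst library (points) with group means (lines), for 3 libraries labelled Fzr1-OE and 2 Control libraries. Hspa5, Hsp90b1, Dnajb9 and Creld2 lie above Control without overlap, Xbp1 overlaps, and Herpud1, Atf4, Asns, Slc3a2, Nupr1 and Aars lie below Control without overlap.

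Atf4 itself stood at 19.2, 26.4 and 28.9 FPKM against 33.1 and 43.9 in Control, below it in all 3 libraries, but did not pass (-0.62, SE 0.19, adjusted p = 0.108). Its sensor kinase Eif2ak4 overlapped, at 1.58, 1.18 and 1.50 against 1.47 and 1.47 FPKM. Ddit3 (CHOP), the factor that promotes cell death under lasting stress, lay slightly above Control at 22.2, 23.7 and 24.0 against 21.8 and 19.8 FPKM (0.15, SE 0.13, adjusted p = 0.566). Ddit3 and Atf4, both known as drivers of the same target genes, thus stood on opposite sides of Control, and neither passed. Ddit3 shares 68 bases with Mars, and the strandedness of the counting is not given in the sources used here, so reads of the overlap cannot be assigned to either gene. Cebpb, a partner of Atf4, had a log2 fold change of 0.96 (SE 0.32, adjusted p = 0.138), also above Control.

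Feedback regulators and tRNA synthetases lay below Control without passing. Trib3, a pseudokinase that restrains Atf4 and Ddit3, stood at 0.830, 1.27 and 1.68 FPKM against 3.02 and 2.12 (-0.66, SE 0.28, adjusted p = 0.230). Ppp1r15a (GADD34), which directs dephosphorylation of eIF2, lay just below Control, at 21.1, 20.1 and 19.9 against 22.1 and 21.6 FPKM (-0.10, SE 0.13, adjusted p = 0.722). Ppp1r15b, the other feedback gene, stood at 3.13, 3.32 and 2.19 against 3.34 and 4.36 FPKM (-0.33, adjusted p = 0.523). All 4 tRNA synthetases were below Control without overlap, where 18.4% of all loci were. Of the 4, 0 passed limma's adjusted test (3 at an unadjusted p of 0.05, which 19.7% of all loci reached). Aars, which charges alanine tRNA, stood at 16.8, 16.1 and 20.7 FPKM against 26.7 and 27.5 (-0.58, SE 0.15, adjusted p = 0.0607). Wars, for tryptophan, stood at 25.6, 32.5 and 29.6 against 33.3 and 45.8 (-0.41, SE 0.16, adjusted p = 0.195). Mars (-0.45) and Gars (-0.13) had the same sign.

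The serine pathway did not share the lower level of Asns. Psat1, its aminotransferase, stood at 117, 111 and 122 FPKM against 95.2 and 98.7, above Control in every library (0.27, SE 0.08, adjusted p = 0.115). Phgdh, the first enzyme of the pathway, overlapped at 102, 109.6 and 109 against 123 and 108 FPKM (-0.11, SE 0.09, adjusted p = 0.559), as did Shmt2 (0.09), Cth (0.21) and the amino acid transporter Slc7a5 (-0.20). The cystine transporter gene Slc7a11 was at or below 0.0156 FPKM in all 5 libraries. Other stress-induced targets were sparse: Atf3, a repressor of the same family, was listed at 0 in 3 of the 5 libraries and stood at 0.565 and 0.555 FPKM in replicates 2 and 3 labelled Fzr1-OE. Chac1, which degrades glutathione, stood at 1.18, 0.785 and 0.307 against 2.06 and 0 FPKM, and Gdf15, a stress-induced hormone, at 1.18, 0.487 and 1.77 against 0.410 and 1.28. Both overlapped, and Gdf15 alone of these was tested (0.21, SE 0.36).

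Other genes of the same pathways were tested in the same comparison. Of 23 further Atf4 target genes, 4 fell and 1 rose (21.7% called, against 4.21% of all loci), and the list as a whole went both ways, with 11 positive and 12 negative fold changes (median -0.21). Ndrg1 stood at a mean of 19.9 ± 1.90 FPKM (SD, n = 3) against 33.6 ± 1.87 (SD, n = 2) (-0.73, adjusted p = 0.0178). Mthfd2, the mitochondrial folate enzyme, had a log2 fold change of -0.84 (adjusted p = 0.0242) and Aldh18a1, the first enzyme of proline synthesis, one of -1.19 (adjusted p = 0.0297). Slc7a3, a transporter of cationic amino acids, also fell (-1.56, adjusted p = 0.0357). It averaged 0.767 FPKM in the libraries labelled Fzr1-OE and 4.08 in Control, and so reached the filter through Control. Its p-value, and its place among the genes that fell, follow in part from that selection. The gene that rose was Eif4ebp1, a repressor of cap-dependent translation (0.30, adjusted p = 0.0261). Among 17 further tRNA synthetase and tRNA export genes, 14 had a negative fold change and 1 fell (5.88%), Nars, at 156 ± 5.76 against 206 ± 8.69 FPKM (-0.40, adjusted p = 0.0194).

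Of 61 other ER genes tested, 3 passed (4.92%), a share near the 4.21% of all loci, so the count is not a result about these lists. Of 18 other folding genes 1 fell, Cnpy2 (-0.49, adjusted p = 0.0223). Of 24 genes of ER import 1 rose, Ssr4, a subunit of the translocon-associated complex (0.36, adjusted p = 0.0322), and of 19 other degradation genes 1 rose, Ufd1l, a cofactor of the extracting ATPase Vcp (0.44, adjusted p = 0.0221). A list on eIF2 control held 12 tested genes: eIF2, its exchange factor and further genes such as Impact and Eif2a. Of these 12 and of 10 other regulators of the unfolded-protein response, 0 passed. In each list 2 had an unadjusted p of 0.05 in limma (16.7% and 20.0%, against 19.7% of all loci). These lists, like the members, were chosen with earlier results of these data known.

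Genes grouped by promoter letters in the same comparison largely restated the arms, since ERSE was found in 1 arm and CARE mostly in the other. All 7 members with ERSE had a positive fold change (median 0.31, 1 called higher), and so did 6 of the 8 tested unfolded-protein genes whose window lacks ERSE (median 0.13, 1 called higher). Dnajb9, with the highest fold change of that arm, is among those 8. All 5 tested amino acid genes with CARE had a negative fold change (median -0.66, 2 called lower). Of the 11 tested amino acid genes whose window lacks CARE, 5 were positive and 6 negative (median -0.03), among them Slc3a2, which fell. Herpud1, the tested unfolded-protein gene with a CARE match, also lay below Control.

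Genes outside the module that hold these letters were called about as often as all loci. Of 10 other ERSE genes, 7 were positive with a median of 0.15 and 0 were called by limma, with 1 of them, Calr4, at an unadjusted p of 0.0311. Of 179 other CARE genes, 109 were negative, with a median of -0.07, and 7 were called (3.91%, against 4.21% of all loci), 3 higher and 4 lower. Of all 9439 loci, 4786 were positive and 4653 negative, with a median of 0.01. The lean of these genes to 1 sign was not tested. Named after their values were seen, those called higher were BB287469 (2.204), Gm4567 (1.81) and Gm4027 (1.46), each under 0.2 FPKM in Control. They reached the filter through the libraries labelled Fzr1-OE, so their calls follow in part from that selection. Those called lower were Fabp3 (-0.71), Cnpy2 (-0.49), Ubb (-0.46) and Serpinb6c (-0.45).

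**Figure D3:**
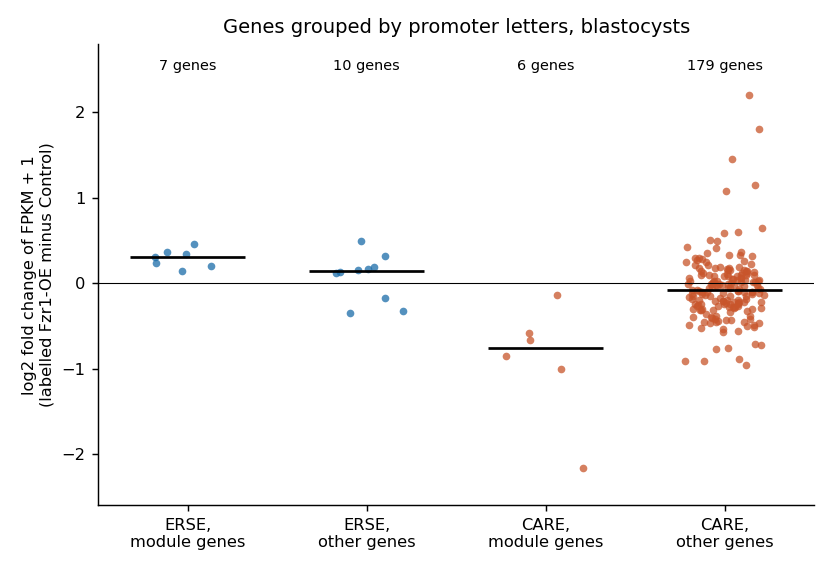
Log2 fold change of FPKM + 1 in blastocysts (libraries labelled Fzr1-OE minus Control, y axis) of genes whose 300-base promoter window holds ERSE or CARE, for genes of the module and all other genes tested; points are genes and lines are medians. The 7 module genes with ERSE lie above 0 and the 6 with CARE below it, whereas the 179 other CARE genes centre near 0, at -0.07.

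Markers of cell type and stage differed between the same groups. The 12 trophectoderm markers summed to between 3839 and 3916 FPKM in the libraries labelled Fzr1-OE against 6114 and 6130 in Control, with 12 of 12 at 1 FPKM or more in all 5 libraries. That sum was mostly Krt18 (2320 to 2471 against 3868 and 3860) and Krt8 (939 to 1015 against 1526 and 1489). Cdx2, Tead4, Tfap2c and Krt7 overlapped Control, and the rest of the list lay below it. The 10 markers of 2-cell embryos found in the tables summed to between 31.0 and 33.3 against 7.13 and 5.22, with 4 and with 7 to 8 of them at 0. Zscan4c, Zscan4d and Zscan4f were listed at 0 in all 5 libraries. Inner cell mass markers summed to between 331 and 379 against 357 and 352, and primitive endoderm markers to between 210 and 223 against 230 and 215, both overlapping. Within these lists, Nanog (45.3 to 49.6 against 43.0 and 38.8), Pou5f1 (18.6 to 25.8 against 17.5 and 14.9) and Gata6 (22.6 to 26.1 against 16.4 and 12.2) lay above Control. Lamb1 and Dab2 lay below it, and the others overlapped. The 12 oocyte markers summed to between 54.0 and 64.6 against 71.6 and 81.7, the 6 sperm markers to at most 3.61 against 4.04 and 4.58, and the 11 cumulus cell markers to between 2.18 and 4.07 against 2.53 and 1.45, most of the genes of these 3 lists being at or near 0. The part of these markers in the differences of the 5 called genes was not tested. The calls rested on few libraries: Asns was called whichever library was left out, but without either Control library it was the only member called. Without replicate 1 or 2 labelled Fzr1-OE, Asns, Nupr1 and Dnajb9 were called, with Creld2 added in the former case, and without replicate 3 Asns and Nupr1 were. Hsp90b1 and Slc3a2 were thus called only with all 5 libraries present. With no filter on low values (45 members tested), or with no intensity trend in limma (36 tested), 0 members were called.

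At the 2-cell stage, no member passed limma's test between WT, sIVF and IVF embryos. The genes that came nearest were chaperones: Creld2 stood above WT in the IVF libraries, and Dnajb9 stood below both WT and sIVF in them. Of 33 members tested, 0 were called in each of the 3 comparisons. Over all 8246 loci, 1 locus (0.0121%) was called in IVF against WT and 0 in both other comparisons. At an unadjusted p of 0.05, 5 members passed in IVF against WT, 3 in sIVF against WT and 7 in sIVF against IVF, where 12.4%, 7.09% and 11.8% of all loci did. Groups did not overlap for 13 (39.4%), 12 (36.4%) and 14 (42.4%) of the 33 members, against 42.2%, 35.9% and 42.7% of all loci, so the shares over both arms were near the background. Taken by arm, they were near it in IVF against WT, at 40.0% of 15 unfolded-protein genes and 38.9% of 18 amino acid genes, and stood at 26.7% and 44.4% in sIVF against WT. In sIVF against IVF they stood apart from each other, at 10 unfolded-protein genes (66.7%), 8 of them lower in sIVF, and 4 amino acid genes (22.2%), though 0 of these genes passed. The 3 comparisons share libraries and are not independent of each other.

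Dnajb9 was the most abundant of the 45 members in WT embryos. It stood at 323 and 268 FPKM in WT, 350.0 and 312 in sIVF, and 115 and 136 in IVF. The IVF libraries lay below all 4 others, with a log2 fold change of -1.23 against WT (SE 0.19, adjusted p = 0.0767), and sIVF stood 1.40 above IVF (SE 0.19, adjusted p = 0.0560). Creld2 stood at 61.8 and 59.6 FPKM in WT, 91.5 and 131 in sIVF and 178 and 180.2 in IVF, in that order without overlap. Its log2 fold change was 1.55 in IVF against WT (SE 0.24, adjusted p = 0.0767) and 0.84 in sIVF against WT (adjusted p = 0.509). Sdf2l1 stood at 20.5 and 23.3 FPKM in WT, 18.2 and 25.8 in sIVF and 79.4 and 42.4 in IVF. The IVF libraries were again apart from the other 4 but differed widely between themselves (1.37 against WT, adjusted p = 0.204, and -1.38 for sIVF against IVF, adjusted p = 0.232). These 3 genes of 1 arm therefore did not lie on 1 side of WT.

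**Figure D4:**
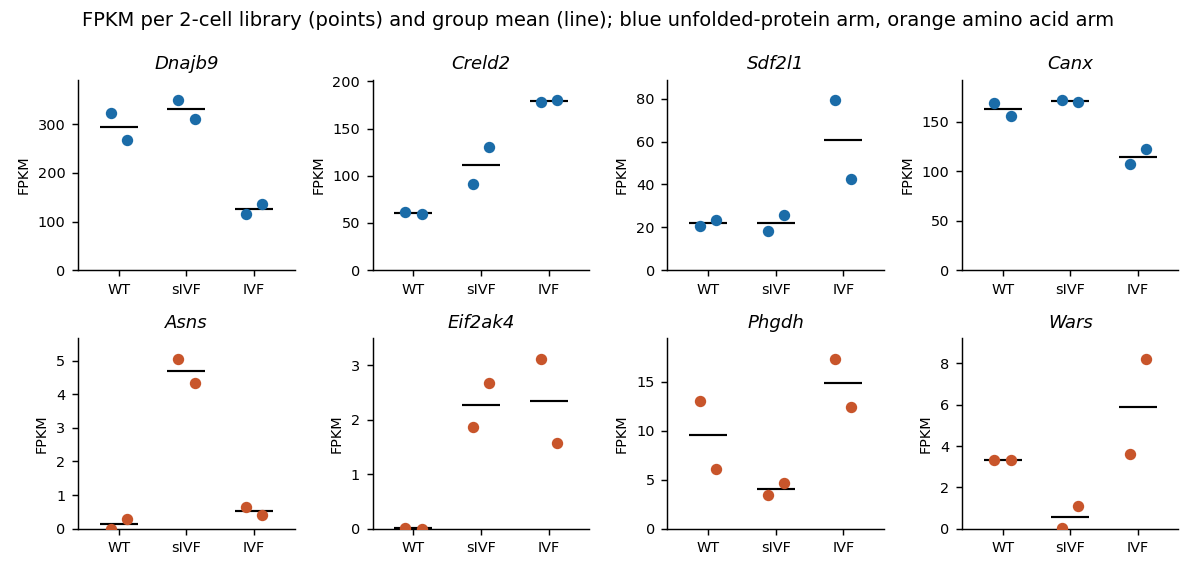
FPKM (y axis, from 0) in each 2-cell library (points) with group means (lines) for 8 stress-response genes with small unadjusted p-values, 2 libraries each of WT, sIVF and IVF. Dnajb9 lies at 268 to 350.0 FPKM in WT and sIVF and at 115 and 136 in IVF, while Creld2 runs from 59.6 in WT to 180.2 in IVF; none of the 8 passed the test.

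Of the other 6 chaperones, Calr, Canx and Manf did not overlap between sIVF and IVF, where 42.7% of all loci did not, and none passed. Hspa5 stood at 62.0 and 77.3 FPKM in WT, 69.4 and 50.4 in sIVF and 91.0 and 64.8 in IVF. Hsp90b1 stood at 41.2 and 48.3 in WT, 18.1 and 47.3 in sIVF and 42.3 and 47.7 in IVF, with 1 low sIVF library. Calr stood at 19.6 and 18.9 in WT, 19.8 and 17.7 in sIVF and 27.8 and 23.8 in IVF, the last above the rest. Canx stood at 169 and 156 FPKM in WT, 172 and 169.6 in sIVF and 107 and 122 in IVF, the last below the rest (-0.50 for IVF against WT, adjusted p = 0.351). Manf stood at 58.0 and 87.4 FPKM in WT, 61.7 and 70.8 in sIVF and 89.2 and 77.0 in IVF, the last above sIVF but not above both WT libraries (-0.32 for sIVF against IVF, adjusted p = 0.702). Pdia4 stood at 7.46 and 27.2 in WT, 6.23 and 14.03 in sIVF and 18.1 and 21.4 in IVF, a spread within WT wider than any difference between groups.

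The sensors and factors were low or at the edge of detection. Ern1 stood at 3.34 and 0.990 FPKM in WT, 0.685 and 0.594 in sIVF and 3.47 and 2.28 in IVF. Eif2ak3 stood at 4.37 and 4.02 in WT, 0.526 and 1.83 in sIVF and 3.53 and 3.76 in IVF, so that sIVF lay below WT and IVF without overlap (-1.32 against WT, SE 0.63, adjusted p = 0.739). Atf6 was below 1 FPKM in all 6 libraries, between 0 and 0.940. Xbp1, at 66.0 to 81.4 FPKM in blastocysts, was listed at 0.237 in the first WT library and at 0 in the other 5, and Herpud1 was listed at 0 and 0.0823 in WT, 0.0493 and 0 in sIVF and 1.77 and 0 in IVF. Genes that most cells use can also be listed at 0 in these tables, such as the leucyl-tRNA synthetase Lars in both WT libraries, so a 0 is given as listed and not as absence.

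Atf4 was measured well in every 2-cell library, at 18.5 and 16.8 FPKM in WT, 17.5 and 18.8 in sIVF and 33.9 and 14.8 in IVF, where the 2 libraries differed more than the groups. Levels in the amino acid arm ran from genes listed at 0 to Psat1, above Atf4 in every library. Asns stood at 0 and 0.278 FPKM in WT, 5.05 and 4.32 in sIVF and 0.657 and 0.397 in IVF, above both others in sIVF (2.33 against WT, SE 0.69, adjusted p = 0.519, and 1.90 against IVF, adjusted p = 0.332). Eif2ak4 stood at 0.0167 and 0 in WT, 1.87 and 2.68 in sIVF and 3.11 and 1.57 in IVF, above WT in both groups (1.69 in each comparison, adjusted p = 0.379 for IVF and 0.682 for sIVF). Phgdh stood at 13.0 and 6.07 in WT, 3.48 and 4.73 in sIVF and 17.4 and 12.4 in IVF (-1.63 for sIVF against IVF, adjusted p = 0.274). Groups of these 3 genes stood apart in some comparisons, and none passed. Eif2ak4, at a mean of 0.00834 FPKM in WT, reached the filter through its sIVF and IVF values. Asns, at means of 0.139 in WT and 0.527 in IVF, reached it through sIVF. For Asns and Eif2ak4, standing above other groups follows in part from that selection.

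The charging enzymes and transporters varied between replicates. Wars stood at 3.34 and 3.35 FPKM in WT, 0.0309 and 1.08 in sIVF and 3.60 and 8.22 in IVF (-2.15 for sIVF against IVF, SE 0.70, adjusted p = 0.283). Aars stood at 2.49 and 0.0581 in WT, 2.60 and 9.16 in sIVF and 3.06 and 7.08 in IVF (1.58 for IVF against WT, adjusted p = 0.504). Psat1, the most abundant amino acid gene in WT, stood at 80.3 and 70.9 in WT, 54.4 and 50.6 in sIVF and 61.7 and 49.4 in IVF, below WT in both groups without a call. Slc3a2 stood at 9.83 and 16.7 in WT, 10.9 and 15.8 in sIVF and 13.8 and 8.91 in IVF, and overlapped throughout. Slc7a11 was at 1.27 and 0.674 in WT, 0.897 and 0.1004 in sIVF and 0.435 and 0.242 in IVF, which is higher than in any blastocyst library.

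Stress-induced regulators of the amino acid arm were also measured in the 2-cell embryos. Ppp1r15a stood at 21.1 and 23.1 FPKM in WT, 28.1 and 50.4 in sIVF and 54.3 and 25.7 in IVF, above WT in all 4 libraries but with wide spread. Nupr1 stood at 16.3 and 24.5 in WT, 18.7 and 15.4 in sIVF and 13.3 and 17.0 in IVF, with overlap. Trib3 stood at 0.562 and 2.71 in WT, 9.94 and 0.498 in sIVF and 1.01 and 2.81 in IVF. The spread of Trib3 lay within groups: its highest and lowest values are the 2 sIVF libraries. Ddit3 was listed at 5.18 and 0 in WT, at 2.71 and about 0 in IVF and at 0 in each sIVF library, and Atf3, Chac1 and Gdf15 were listed at 0 in all 6 libraries.

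Some marker sums also stood apart between these groups, and others did not. IVF lay lowest in 2-cell markers, while WT and sIVF overlapped in 2-cell and cumulus cell markers. In oocyte markers the higher WT sum (353) was near the lower IVF sum (356). The 10 markers of 2-cell embryos summed to 136 and 102 FPKM in WT, 86.3 and 122 in sIVF and 64.5 and 68.9 in IVF, with 0 to 3 of the 10 at 0 in any library. The 12 oocyte markers summed to 353 and 234 in WT, 490 and 440 in sIVF and 519 and 356 in IVF, with 2 or 3 of the 12 at 0. The 11 cumulus cell markers summed to between 1.26 and 8.17 in the 6 libraries, with 8 to 10 at 0. All 6 sperm markers were listed at 0 in WT and sIVF and summed to 3.25 and 0.102 in IVF. Their part in the values of Creld2 and Dnajb9 was not tested. Quantile normalization moved the median of all loci in IVF against WT from 0.09 to -0.02. Creld2 and Dnajb9 passed in IVF against WT with a filter of a mean of 5 FPKM, which tests fewer loci, and Dnajb9 passed in sIVF against IVF with that filter and with quantile normalization.

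Between the stages, most stress-response genes stood at higher FPKM in Control blastocysts than in WT 2-cell embryos, and 4 genes of the unfolded-protein arm at lower FPKM. Of 36 members tested in a fit over all 11 libraries, 26 passed (72.2%), 22 higher and 4 lower. The background was high: 65.4% of all 9762 loci passed, 45.8% higher and 19.6% lower, so the count of members is close to it. The groups of 30 members (83.3%) did not overlap, against 82.5% of all loci. The median log2 fold change over all loci was 0.88, and quantile normalization took it to -0.02 and upper-quartile scaling to 0.16. Under all 3 scalings, 17 members passed in the same direction. Quantile normalization by itself left 60.0% of all loci called, and upper-quartile scaling 59.1%. The share of all loci passing under all 3 was not counted, so this count and those by arm below only describe the members. Stage, library preparation and sequencing cannot be told apart here, and the WT and Control libraries also enter the comparisons within each stage. The groups also carry different labels, WT and Control. Any difference in how these embryos were produced cannot be told apart from stage either.

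In the unfolded-protein arm, 5 genes were higher and 4 lower in blastocysts under all 3 scalings. Xbp1 went from 0.237 and 0 FPKM in WT to 69.2 and 74.2 in Control, a log2 difference of 6.03 on the FPKM + 1 scale (SE 0.24, adjusted p = 2.66e-07), whose size depends on the pseudocount. Pdia6, a disulfide isomerase, went from 4.86 and 2.46 to 109 and 115 FPKM (4.65, SE 0.28, adjusted p = 1.73e-06). Herpud1 went from 0 and 0.0823 to 16.9 and 26.8 FPKM (4.42, SE 0.46), and this size also depends on the pseudocount (3.41 to 7.31 over the alternatives). Xbp1 and Herpud1 were below the filter at the 2-cell stage and entered this test through their blastocyst values. Their p-values therefore follow in part from that selection. Calr went from 19.6 and 18.9 to 91.5 and 102 (2.27, SE 0.17), and Pdia3 (1.42) was the last. None of the 5 overlapped between stages.

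The 4 that were lower were Dnajb9, Eif2ak3, Canx and Manf. Dnajb9 fell from 323 and 268 FPKM in WT to 17.7 and 17.2 in Control (-4.00, SE 0.17, adjusted p = 3.28e-07), the opposite direction to its regulator Xbp1. Eif2ak3 fell from 4.37 and 4.02 to 1.06 and 0.621 FPKM (-1.51, SE 0.34, adjusted p = 0.0042). Canx fell from 169 and 156 to 54.6 and 71.8 FPKM (-1.36, SE 0.17), and Manf from 58.0 and 87.4 to 35.8 and 36.0 (-0.97, SE 0.21, adjusted p = 0.0034). The 2 lectin chaperones Calr and Canx, which bind the same class of glycoprotein, thus changed in opposite directions.

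In the amino acid arm 12 of 19 genes were higher and 0 lower, and 8 were higher under all 3 scalings. The share called, 63.2%, was near the 65.4% of all loci, of which 45.8% were higher and 19.6% lower. Of the 12, Ddit3, Shmt2 and Mars did not pass with a pseudocount of 0.1, and Ddit3 and Eif2ak4 did not when the fit held the compared libraries alone. Cebpb, also among the 12, was listed at 0 in both WT libraries and was below the filter at the 2-cell stage. It entered this test through its blastocyst values, so its p-value follows in part from that selection. Asns went from 0 and 0.278 FPKM in WT to 77.8 and 69.2 in Control (6.04, SE 0.25, adjusted p = 2.66e-07). Its WT values were near 0, so the size depends on the pseudocount, and it ran from 5.03 to 8.56 over the alternatives. Aars went from 2.49 and 0.0581 to 26.7 and 27.5 (3.87, SE 0.64), Phgdh from 13.0 and 6.07 to 123 and 108 (3.55, SE 0.32) and Wars from 3.34 and 3.35 to 33.3 and 45.8 (3.20, SE 0.42). Slc3a2 (2.55), Gars (2.81), Shmt2 (2.60) and Ddit3 (3.13) were the others. Ddit3 is uncertain: its WT libraries stood at 5.18 and 0 FPKM, and its fold change ran from 1.82 to 4.85 over the alternatives. The effect of the 68 bases that Ddit3 and Mars share was not tested for either gene. Of 17 further tRNA synthetase and tRNA export genes 14 were also higher and 0 lower, among them Dars (2.73). Atf4 itself, at 18.5 and 16.8 against 33.1 and 43.9 FPKM, was higher on the deposited scale (1.07, SE 0.37, adjusted p = 0.0295) but not with quantile normalization (0.16) or upper-quartile scaling (0.16).

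**Figure D5:**
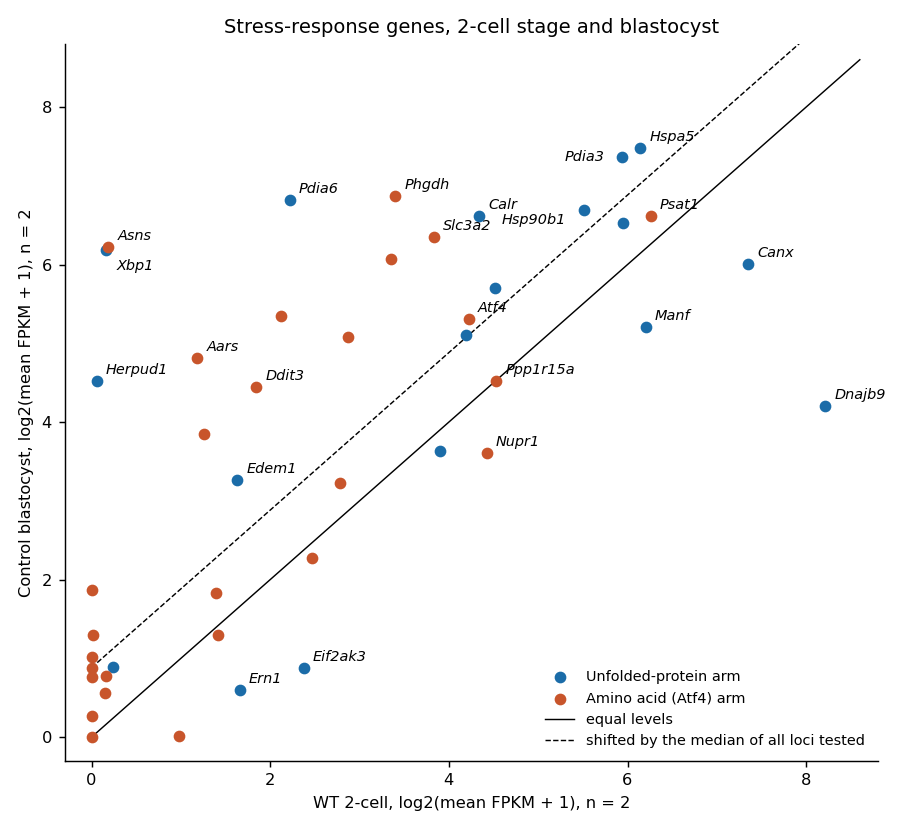
Log2(mean FPKM + 1) of the 45 genes in WT 2-cell embryos (x axis, n = 2) and Control blastocysts (y axis, n = 2), coloured by arm; the solid line marks equal levels and the dashed line the shift of 0.88 that is the median of all loci tested. Asns, Xbp1, Herpud1, Pdia6 and Phgdh lie far above the dashed line, and Dnajb9, Canx, Manf and Eif2ak3 lie below the solid one.

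For several central genes the call depended on the scale. Hspa5, at 62.0 and 77.3 against 187 and 166 FPKM, was higher on the deposited scale (1.34, SE 0.21, adjusted p = 0.0006) but did not pass under quantile normalization (0.50, adjusted p = 0.0531) or upper-quartile scaling (0.40). Hsp90b1, Sdf2l1, Edem1 and Mars likewise passed on the deposited scale and under neither of the others. Creld2 passed as higher (0.57) and turned to -0.30 and -0.37 under those scalings, neither of which passed. Cebpb and Eif2ak4 passed as higher on the deposited scale and with upper-quartile scaling only. Ern1 (-0.96), Nupr1 (-0.80), Ppp1r15a (-0.01) and Psat1 (0.36) did not pass on the deposited scale and passed as lower under both others. The order of levels also changed: in WT the highest of the 45 were Dnajb9 at 295 ± 38.7 FPKM, Canx at 162 ± 9.19 and Psat1 at 75.6 ± 6.65 (SD, n = 2). In Control blastocysts they were Hspa5 at 177 ± 14.7, Pdia3 at 163 ± 4.06 and Phgdh at 116 ± 10.5 (SD, n = 2), where Hspa5 and Pdia3 overlap within their spread.

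Members below the filter complete the set. In blastocysts 9 were not tested: Ern1, Atf6, Atf3, Atf5, Slc7a11, Chac1, Ddit4, Stc2 and Vldlr. At the 2-cell stage 12 were not tested, these without Ern1 and with Xbp1, Herpud1, Cebpb and Gdf15. Atf5, a factor related to Atf4, was listed at 0 in all 6 2-cell libraries and between 0.170 and 1.13 FPKM in blastocysts. Its locus overlaps Nup62, so its values are uncertain. Vldlr, a lipoprotein receptor, stayed between 0 and 0.744 FPKM, Ddit4, an inhibitor of mTORC1, between 0 and 1.24, and Stc2, a secreted glycoprotein, between 0 and 1.07, with no group apart in either stage. Ppp1r15a and Shmt2 share 10 and 32 bases with Tulp2 and Ndufa4l2, and Pdia4 and Pdia6 share 77 and 50 bases with Mir704 and Atp6v1c2.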

How the data were processed

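RNA was measured in 6 libraries of 2-cell embryos and 5 of blastocysts. Per the labels' protocols, cDNA made directly from lysates was amplified over 18 to 20 cycles before fragmentation, so rare transcripts can drop out or vary between libraries. The authors deposited FPKM per gene locus with lower and upper bounds, per the file headers. The submitters' processing notes name, without roles, Cufflinks 2.2.1, HISAT2 2.1.0, Bowtie2 2.3.5, Trim Galore 0.6.4, DiffBind 2.12.0, deepTools 3.5.0, Cuffdiff and Bismark, and the build mm9. Locus starts count from 0 in the tables and are given from 1. Exons are not stated, because no mm9 annotation was used. The fat tables turned out to list gene ontology terms, each with a deposited Fisher p-value and FDR, so they were described and not tested.

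Samples were grouped by the genotype and stage in the labels. Differences were tested by limma 3.58.1 (R 4.3.3), with moderated variances that follow the mean level, on log2(FPKM + 1), which understates the change of low genes. Loci that averaged 1 FPKM or more over the libraries of a fit were kept: the 6 2-cell libraries, the 5 blastocyst libraries, or all 11 for the stages. P-values were adjusted by Benjamini-Hochberg over all loci kept, and a locus was called at an adjusted p under 0.05. The procedure was tested on simulated data. Fragments per value were read from the deposited bounds, taken as 2 SD of a Poisson count. Other pseudocounts, filters, scalings, variance models and left-out replicates were tried. Promoters, gene names and synonyms came from RefSeq tables (GRCm38.p6), read with Python 3.11.15, pandas 2.3.3 and numpy 2.4.6, and figures were drawn with matplotlib 3.10.9.

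Values are given in every library for most sensors, transcription factors and defining targets. Some low genes, such as Atf5, are given as a range, and Cebpb by its fold change. Values are also given for each member called within a stage. Where none was called, they are given for the 2 members of smallest p per arm and comparison. For the stages, the 4 called members of largest rise and of largest fall per arm are given, and for other pathway lists up to 4 called genes per direction. The members and all lists were chosen with earlier results of these data known.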

Additional observations from a re-analysis of the deposited data

How the results depend on the processing

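Of 36 tested members, 29 kept the sign of their blastocyst fold change under every alternative, as did 25 of the 26 members called between stages. The 5 calls in blastocysts became 8 with a filter of a mean of 5 FPKM (Hspa5, Aars and Herpud1 added), and 0 with no filter or no intensity trend. Leaving out 1 library at a time gave 1 to 4 calls: 4 (Creld2 added) and 3 without the first and second replicates labelled Fzr1-OE, 2 without the third, and 1 without either Control replicate. Of the 5, Hsp90b1 and Slc3a2 lost their call whichever library was left out, Dnajb9 without replicate 3 labelled Fzr1-OE or either Control library, and Nupr1 without either Control library. At the 2-cell stage the 0 calls became 2 in IVF against WT with that filter, and 1 in sIVF against IVF with that filter or quantile normalization; leaving out a library gave 0. Between stages, leaving out a library gave 22 to 26; 23 members were called with a pseudocount of 0.1 (Ddit3, Mars and Shmt2 lost) and 22 in the fit of the compared libraries alone (Creld2, Ddit3, Edem1 and Eif2ak4 lost). Under the replicate block, 1 member, Nupr1, was called in blastocysts (1 residual degree of freedom), 0 at the 2-cell stage and 24 between stages. No label says that replicate numbers pair the samples. Differences between replicates 1 and 2 correlated across loci between groups with r of -0.01 in blastocysts and -0.003, 0.074 and -0.001 at the 2-cell stage. With 1 such difference per group, a low r cannot exclude a shared animal, litter or day. Signs turned in 7 uncalled blastocyst genes, given with their range over left-out libraries: Xbp1 (-0.0468 under the block and without replicate 3 labelled Fzr1-OE, -0.0203 without Control replicate 1; -0.0468 to 0.102), Slc7a5 (0.0129 in the former 2 settings; -0.423 to 0.0129), Edem1 (0.0719; -0.167 to 0.0719) and Eif2ak4 (0.0436; -0.0779 to 0.0436) without replicate 2 labelled Fzr1-OE, Canx (-0.0487; to 0.342) and Gdf15 (-0.134; to 0.455) without Control replicate 1, and Shmt2 (-0.0323; to 0.2202) without Control replicate 2. Between stages Creld2 turned to -0.30 (quantile) and -0.37 (upper-quartile). The cause of these changes was not tested. Where 1 Control library remained, it was assumed to vary like the other group.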

Other observations

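The fat tissue tables name almost none of these genes. In the authors' deposited table of terms for fat RNA, which lists 1605 terms over 449 symbols, 0 of the 45 members were named and 0 terms concerned ER stress or eIF2. In the authors' deposited table for fat DNA methylation, with 632 terms over 119 symbols, 1 member was named, Aars, in 40 terms. Of these terms, system development had the smallest Fisher p in the authors' deposited table, 5.7e-07, with an FDR of 0.0013. It held 54 selected genes of 4389 annotated. The term for alanyl-tRNA aminoacylation held 1 selected gene of 4 annotated, with a Fisher p of 0.0265 and an FDR of 0.187 in the authors' deposited table.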
